A study of Mus musculus with 20 samples.

Results

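Transcripts of 8 genes of the choroid plexus were followed through 6 polyA RNA libraries of mouse brain tissue: Ttr, Enpp2, Kl, Folr1, Kcne2, Clic6, Aqp1 and Otx2. The genes were taken by symbol from the 34620 symbols counted in each library. All 8 were among the 19192 genes that passed the filter on low counts and were tested. The choroid plexus is a folded sheet of secretory epithelium that lies within the brain ventricles and makes cerebrospinal fluid. Its cells carry ions and water into the fluid, bring in folate and other nutrients from the blood, and secrete transthyretin, the carrier of thyroid hormone and retinol. The tissue borders both the hippocampal field, through the cortical hem, and the striatum, through the lateral ventricle.

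The libraries came from frozen, cryosectioned and microdissected brains of C57BL/6 mice that the labels give as male and wild type, and no age is given. They comprised 1 library of striatal precursors (SP), 1 of hippocampal precursors (HP), 1 of young medium spiny neurons (yMSN), 1 of young hippocampal CA pyramidal neurons (yCA) and, as the sole group with replicates, 2 of medium spiny neurons labelled dorsal (dMSN). For medium the labels write medial. No group carries an engineered allele or a treatment. The series holds 20 samples, and its 14 bisulfite samples were not analysed here. Nothing says that the 2 dMSN libraries came from separate animals, so the spread between them may be technical. The p-values of the dMSN comparisons measure only that spread. In the comparisons of stage and of lineage, the error also holds the difference between the lineages in their change from precursor to young.

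The counts assigned to genes were 31282185 to 36969136 in the 4 unreplicated libraries, against 145713678 and 152347673 in the dMSN libraries. Levels are given in CPM, counts scaled for library size by the trimmed mean of M-values (TMM) method. Counting error alone lets a count of 0 stand for as much as 0.0861 CPM in HP or 0.0249 CPM in dMSN 1. Against their labels as male, SP and yCA had 17 and 14 counts in all over 4 Y-linked genes, while HP had 831, yMSN 2410 and the dMSN libraries 8881 and 10048. Xist, which is transcribed from an inactive X chromosome, stood at 489 to 1088 CPM in SP, HP, yMSN and yCA and at no more than 0.0333 CPM in the dMSN libraries. Ppp1r1b, which encodes the DARPP-32 phosphoprotein of medium spiny neurons, stood at 2575 and 2473 CPM in dMSN, 19.1 CPM in yMSN, 26.1 CPM in yCA and under 1 CPM in both precursor libraries. Transcripts typical of muscle and connective tissue were abundant in yMSN, and those of muscle in yCA too. A skeletal muscle list of 12 genes summed to 2373 CPM in yMSN and 6429 CPM in yCA, against 15.5 CPM in SP and 16.4 CPM in HP. Meningeal and fibroblast genes, 12 in all, summed to 11924 CPM in yMSN, 1178 CPM in yCA, 1058 CPM in SP and 1118 CPM in HP. In dMSN they summed to 100.5 and 99.8 CPM, so the sum was highest in yMSN and lowest in dMSN. Col1a1 at 6725 CPM and Col1a2 at 4596 CPM held most of the yMSN sum. By gene, 5 of the 12 were higher and 6 lower in dMSN against SP (edgeR adjusted p below 0.05). Of all genes, 39.1% were higher and 33.1% lower there. In dMSN against yMSN 0 were higher and 10 lower, where 32.1% of all genes were higher and 35.4% lower.

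Promoter sequence was at hand for 4 of the 8 genes. Of these, 3 are shown as examples of the different courses described below, namely Kl, which was highest in dMSN, Kcne2, which was nearly lacking in HP, and Otx2, which was highest in the precursors. The 250 bases before the transcription start come from RefSeq on build GRCm38.p6 and read 5′ to 3′ along the gene's strand. The Kl stretch is chr5:150952357-150952606 on the plus strand, the first Kcne2 stretch chr16:92292139-92292388 on the plus strand, and the third of 4 annotated Otx2 stretches chr14:48665110-48665359 on the minus strand. Capitals mark the motif TAATCC, the core sequence that OTX homeodomain proteins bind, searched on both strands.
Kl: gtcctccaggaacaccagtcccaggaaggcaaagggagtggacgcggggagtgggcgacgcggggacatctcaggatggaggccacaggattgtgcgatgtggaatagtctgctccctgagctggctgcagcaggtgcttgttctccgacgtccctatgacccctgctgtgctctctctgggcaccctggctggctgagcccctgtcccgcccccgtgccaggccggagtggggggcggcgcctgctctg
Kcne2: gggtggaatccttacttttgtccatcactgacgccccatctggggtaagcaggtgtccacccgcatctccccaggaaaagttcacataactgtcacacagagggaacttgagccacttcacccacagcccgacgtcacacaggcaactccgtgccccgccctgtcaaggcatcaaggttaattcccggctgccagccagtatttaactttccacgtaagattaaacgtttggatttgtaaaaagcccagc
Otx2: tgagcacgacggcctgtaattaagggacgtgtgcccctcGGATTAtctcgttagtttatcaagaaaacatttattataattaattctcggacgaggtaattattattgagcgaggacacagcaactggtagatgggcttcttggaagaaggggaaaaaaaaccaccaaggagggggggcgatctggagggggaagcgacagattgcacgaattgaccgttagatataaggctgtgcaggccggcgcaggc
Of the 8 promoter stretches annotated for Kl, Aqp1, Otx2 and Kcne2, 1 held the motif. It lay 211 bases before that Otx2 start, as GGATTA on the strand shown, which is the motif's reverse complement. The motif was present in 6.25% of the 32851 mouse promoters searched. GC content was 66.8% in the Kl stretch, 52.4% in the Kcne2 stretch and 48.4% in the Otx2 stretch, against a median of 52.4% over all promoters.

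The 8 genes did not rank the libraries in 1 order. Ttr, Enpp2, Kl, Folr1 and Kcne2 were highest in the dMSN libraries, Clic6 and Aqp1 were highest in yMSN, and Otx2 was highest in SP. HP and yCA were the highest library for none of the 8 genes. In these bulk samples, fewer cells of a type and less RNA per cell cannot be told apart.

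**Figure D1:**
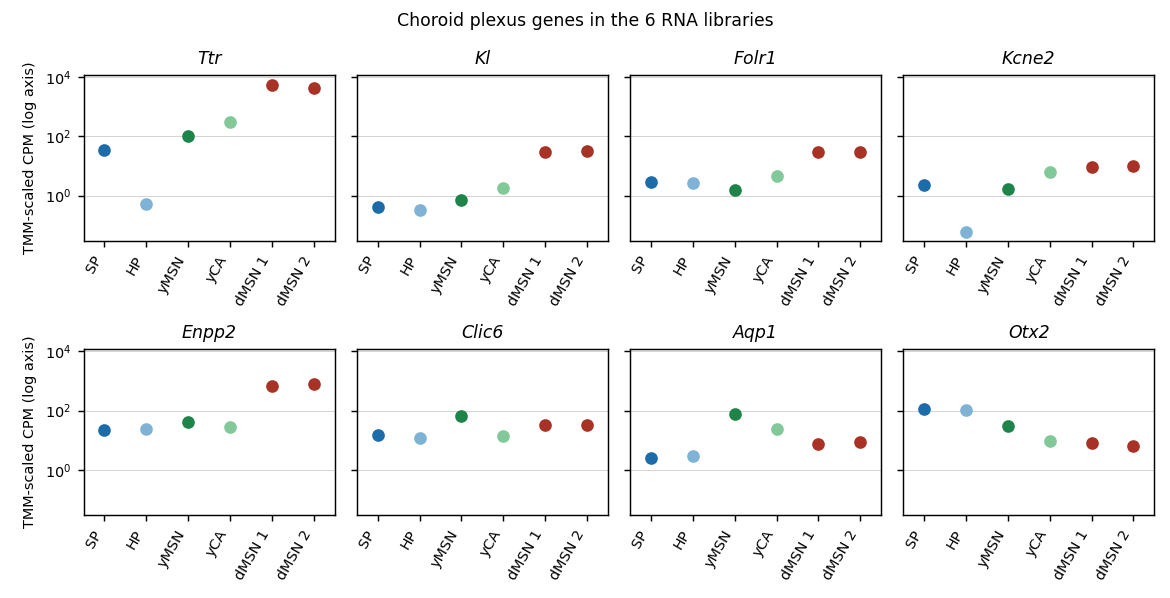
Level of each of the 8 genes in each RNA library, 1 panel a gene, in TMM-scaled CPM on a log axis, with the libraries ordered from precursors to dMSN and each point 1 library. The 2 dMSN points stand above the rest for Ttr, Enpp2, Kl, Folr1 and Kcne2, while Aqp1 and Clic6 are highest in yMSN and Otx2 in SP and HP.

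Of the secreted proteins, transthyretin had the widest range. Ttr stood at 33.7 CPM in SP, 0.517 CPM in HP, 105 CPM in yMSN, 309 CPM in yCA, 5463 CPM in dMSN 1 and 4293 CPM in dMSN 2. The dMSN libraries were far above all others, HP was far below all others on 18 counts, and the libraries of 1 stage did not lie together. Gm16090, a noncoding gene that overlaps Ttr in the reference, had 0 to 18 counts per library. Whether the counting used strand is not given in the sources used here.

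Enpp2 encodes autotaxin, a secreted enzyme that makes lysophosphatidic acid (LPA) and is also made by oligodendrocytes. It stood at 21.3 CPM in SP, 24.2 CPM in HP, 40.5 CPM in yMSN, 27.9 CPM in yCA, 672 CPM in dMSN 1 and 794 CPM in dMSN 2. The 4 earlier libraries lay close together and the dMSN pair stood apart from them. The 12 genes of the oligodendrocyte list moved in the same direction. They summed to 9101 and 7799 CPM in dMSN, against 85.1 to 167 CPM in the other 4 libraries, and Opalin, which marks mature oligodendrocytes, was at 0 in those 4. Their part in the Enpp2 level was not tested.

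The receptors were both highest in dMSN. Kl encodes klotho, the co-receptor for the hormone FGF23, and stood at 0.403 CPM in SP, 0.316 CPM in HP, 0.691 CPM in yMSN, 1.88 CPM in yCA, 30.1 CPM in dMSN 1 and 30.8 CPM in dMSN 2. In the 4 earlier libraries these levels rested on 11 to 73 counts, and the precursors were lowest. Folr1 encodes folate receptor alpha, which carries folate into the cerebrospinal fluid. It stood at 2.95 CPM in SP, 2.61 CPM in HP, 1.52 CPM in yMSN, 4.73 CPM in yCA, 30.5 CPM in dMSN 1 and 29.2 CPM in dMSN 2. For this gene yMSN, and not a precursor library, was lowest.

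Of the channel proteins, each had its own course. Kcne2 encodes an accessory subunit of potassium channels of the apical membrane. It stood at 2.37 CPM in SP, 0.0574 CPM in HP, 1.61 CPM in yMSN, 6.27 CPM in yCA, 9.52 CPM in dMSN 1 and 10.2 CPM in dMSN 2. HP held 2 Kcne2 counts, below its floor of 0.0861 CPM, while yCA came within 2-fold of dMSN.

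Clic6, of the chloride intracellular channel family, stood at 15.2 CPM in SP, 12.3 CPM in HP, 63.7 CPM in yMSN, 13.7 CPM in yCA, 33.7 CPM in dMSN 1 and 33.6 CPM in dMSN 2. The yMSN library was above dMSN, and yCA lay among the precursors. Aqp1, a water channel that is also made by blood vessels outside the brain, stood at 2.57 CPM in SP, 2.93 CPM in HP, 75.7 CPM in yMSN, 23.6 CPM in yCA, 7.73 CPM in dMSN 1 and 8.52 CPM in dMSN 2. Both young libraries stood above the dMSN pair. Both also held the muscle transcripts given above, and the fibroblast sum was highest in yMSN. In yCA some fibroblast genes, such as Dcn, stood above both precursors and others, such as Lum, below. The part of the muscle and fibroblast transcripts in the Aqp1 level was not tested. A list of 10 endothelial genes summed to 298 CPM in SP, 300.1 CPM in HP, 347 CPM in yMSN, 273 CPM in yCA, 127 CPM in dMSN 1 and 139 CPM in dMSN 2.

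Otx2, a homeodomain transcription factor that is required for the choroid plexus to form and is also made by the roof plate, midbrain and eye, ran the other way. It stood at 112 CPM in SP, 103 CPM in HP, 30.5 CPM in yMSN, 9.80 CPM in yCA, 8.28 CPM in dMSN 1 and 6.54 CPM in dMSN 2. The precursors were highest, and the dMSN pair and yCA were lowest. A list of 14 roof plate and cortical hem genes summed to 360 CPM in SP, 572 CPM in HP, 162 CPM in yMSN, 101 CPM in yCA, 94.5 CPM in dMSN 1 and 98.1 CPM in dMSN 2. A list of 12 midbrain and hindbrain genes summed to 220 CPM in SP and 59.7 CPM in HP, against 6.82 to 27.0 CPM in the other 4 libraries. Foxa2 of that list was at 0 in both dMSN libraries, and the part of either list in the Otx2 level was not tested.

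The 2 dMSN libraries lay close together in some of these genes and not in others. Clic6 averaged 33.7 ± 0.0651 CPM and Kl 30.4 ± 0.508 CPM (SD, n = 2). Ttr averaged 4878 ± 827 CPM and Otx2 7.41 ± 1.23 CPM (SD, n = 2), the widest spreads of the 8 relative to the mean. The ratio of dMSN 1 to dMSN 2 was 1.27 for Ttr, with a 95% interval of 1.27 to 1.28, and 0.847 for Enpp2, with an interval of 0.839 to 0.855. Both intervals cover counting error only and exclude 1, and the 2 genes lay on opposite sides of it. Among genes of at least 5 CPM the median difference between these libraries was 1.13-fold, and 81.7% of them differed less than Ttr did and 80.7% less than Otx2 did.

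Dorsal medium spiny neurons were first compared with young ones. These libraries also differ in depth, in Xist and in muscle, fibroblast and oligodendrocyte transcripts, and no age is given. Maturation therefore cannot be told apart from these differences. All 8 genes differed, and in 2 directions. Ttr was 46.3-fold higher in dMSN than in yMSN, a log2 change of 5.53 ± 0.344 (SE), and its edgeR adjusted p was 4.9e-08. Kl rose by 5.46 ± 0.377, Folr1 by 4.30 ± 0.338, Enpp2 by 4.18 ± 0.270 and Kcne2 by 2.61 ± 0.363 on the log2 scale, with edgeR adjusted p from 6.6e-08 to 4.3e-05. Clic6 fell by 0.92 ± 0.208, Otx2 by 2.04 ± 0.213 and Aqp1 by 3.22 ± 0.224, with edgeR adjusted p of 0.0018, 3.8e-06 and 1.2e-07.

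Of the 8 genes, 5 were thus higher and 3 lower. Of all genes tested, 67.5% passed in this comparison, 32.1% as higher and 35.4% as lower. The share of the 8 that was lower is near this background. The median log2 change was 3.40 over the 8 genes and -0.11 over all genes. The spread rests on the dMSN pair alone, since yMSN is 1 library. With lineage and stage as terms, the calls for Ttr (3.18, edgeR adjusted p = 0.34), Clic6 (-0.53, edgeR adjusted p = 0.36) and Kcne2 (0.73, edgeR adjusted p = 0.77) were lost.

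Against SP, dMSN differed in all 8 genes as well, and the libraries again differ in depth, Xist and oligodendrocyte transcripts. This comparison shares the dMSN libraries with the one before, so the values stand side by side and are not independent. Ttr rose by 7.18 ± 0.375, Kl by 6.23 ± 0.405, Enpp2 by 5.10 ± 0.286, Folr1 by 3.34 ± 0.316 and Kcne2 by 2.06 ± 0.349 on the log2 scale, with edgeR adjusted p from 6.1e-09 to 0.00018. Aqp1 rose by 1.66 ± 0.270 and Clic6 by 1.15 ± 0.229, with edgeR adjusted p of 0.00012 and 0.00064, although both genes were lower in dMSN than in yMSN. Otx2 fell by 3.92 ± 0.217, with an edgeR adjusted p of 9.4e-09.

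Here 7 of the 8 genes were higher and 1 was lower, where 72.1% of all genes passed, 39.1% as higher and 33.1% as lower. The median log2 change was 2.70 over the 8 genes and 0.20 over all genes. The counts of 7 and 1 were the same when both young libraries were left out, an alternative added after the data were seen. With lineage and stage as terms, the calls for Aqp1 (1.10, edgeR adjusted p = 0.13), Clic6 (0.60, edgeR adjusted p = 0.37) and Kcne2 (2.92, edgeR adjusted p = 0.11) were lost.

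**Figure D2:**
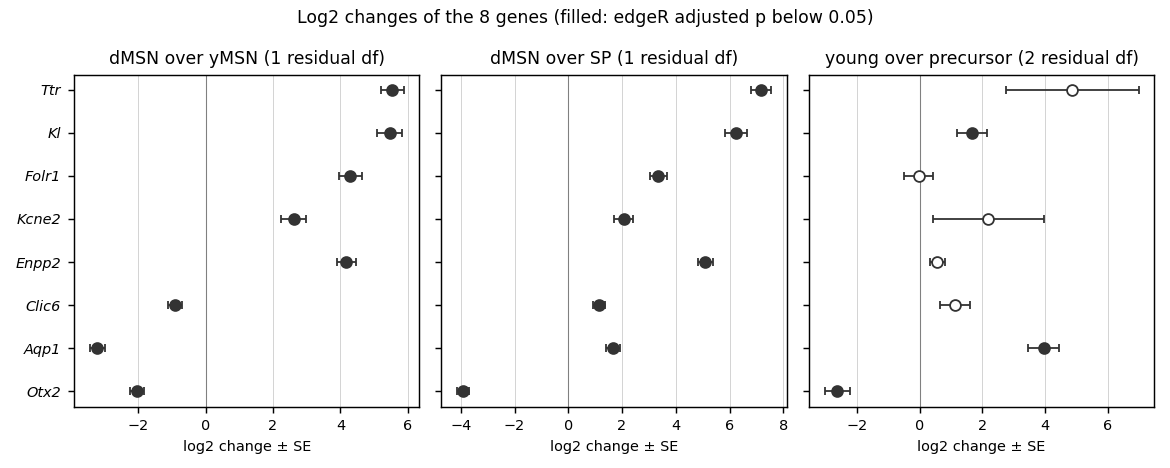
Log2 change of each of the 8 genes, with its SE, in dMSN over yMSN, dMSN over SP and young over precursor, 1 panel each, where a filled point passed at an edgeR adjusted p below 0.05. All 8 passed in both dMSN comparisons, fitted with 1 mean per cell group, where Aqp1 and Clic6 lie on opposite sides of 0. In young over precursor, fitted with lineage and stage as terms, 3 passed. The models differ, so the numbers that passed cannot be compared between those panels.

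In young against precursor libraries, with lineage as a term, 3 of the 8 genes passed. The model is not that of the dMSN comparisons, so the numbers that passed cannot be set against each other. Aqp1 rose by 3.95 ± 0.503 on the log2 scale, with an edgeR adjusted p of 0.0049. Otx2 fell by 2.63 ± 0.399, with an edgeR adjusted p of 0.0078. Kl rose by 1.68 ± 0.476 with an edgeR adjusted p of 0.045. That call was lost without HP (0.77, edgeR adjusted p = 0.22), without yCA (0.67, edgeR adjusted p = 0.28) or without either dMSN library (1.67, edgeR adjusted p = 0.13). It was also lost under RLE scaling (1.55, edgeR adjusted p = 0.056) and with limma voom (1.69, adjusted p = 0.07), while the change was about as large.

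The other 5 genes did not pass: Ttr at 4.87 ± 2.11 (edgeR adjusted p = 0.13), Kcne2 at 2.19 ± 1.78 (edgeR adjusted p = 0.38), Clic6 at 1.12 ± 0.467 (edgeR adjusted p = 0.12), Enpp2 at 0.57 ± 0.232 (edgeR adjusted p = 0.11) and Folr1 at -0.03 ± 0.462 (edgeR adjusted p = 0.97). Ttr passed with DESeq2 (5.29, adjusted p = 0.031) and whenever 1 of the 4 unreplicated libraries was left out, at 1.64 without HP, 1.54 without yCA, 9.21 without SP and 9.22 without yMSN, with edgeR adjusted p from 4.2e-08 to 0.0021. Each value with 1 such library left out is the change in the lineage that kept both its libraries. The SE of Ttr and Kcne2 exceeded those of the other genes, and the 2 lineages moved by unequal amounts in both genes, as their ratios within each lineage show. In all, 2 of the 8 genes were higher and 1 was lower, against 21.7% and 13.7% of all genes, with 35.4% called in either direction. These shares are near the background. Single libraries moved these counts: 4 genes were higher without HP, without SP or without yCA, 5 without yMSN, and 1 without either dMSN library. Without HP or without yCA 2 genes were lower.

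Each lineage is 1 pair of libraries and has no replicate check, so ratios are given with 95% intervals for counting error only. In the hippocampal pair, yCA over HP, Ttr was 597-fold higher (378 to 1008), Kcne2 109-fold (29.9 to 907, on 2 counts in HP) and Kl 5.94-fold (3.13 to 12.4). In the striatal pair, yMSN over SP, the ratios were 3.12 (2.94 to 3.32) for Ttr, 0.681 (0.493 to 0.938) for Kcne2 and 1.71 (0.905 to 3.37) for Kl. The ratio of all 3 genes was larger in the hippocampal than in the striatal pair, and the Kl interval of the striatal pair includes 1. Aqp1 had the opposite order, with 29.5 in the striatal and 8.07 in the hippocampal pair. Of genes that reached 5 CPM in either library of a pair, 20.8% were at least 2-fold higher in each pair, and 14.1% in the hippocampal and 9.55% in the striatal pair at least 2-fold lower. In the hippocampal pair 6 of the 8 genes reached 5 CPM, with 3 at least 2-fold higher and 1 lower. In the striatal pair 5 did, also with 3 higher and 1 lower.

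Striatal and hippocampal libraries, with stage as a term, did not differ in any of the 8 genes past the threshold in edgeR. None of the 19192 genes tested passed (0%), while 4.3% had an unadjusted p below 0.05, among them 1 of the 8, Clic6. DESeq2 called 60 genes, none of them among the 8, and limma voom called none. The Ttr change was 1.65 ± 2.28 on the log2 scale with an edgeR adjusted p of 1. The direction of Ttr turned when SP or HP was left out, to -1.55, since yMSN and yCA are then the only pair that sets the lineage change.

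Within a stage the order of the lineages was not fixed. Ttr was 65.2-fold higher in SP than in HP (41.1 to 110), and Kcne2 41.2-fold (11.1 to 345, on 2 counts in HP). The other 6 genes lay between 0.877 and 1.28 times their HP level in SP. Of genes that reached 5 CPM in SP or HP, 2.06% were at least 2-fold higher in SP and 0.898% at least 2-fold lower. Of the 8 genes 4 reached it, with 1 at least 2-fold higher and 0 lower. Between the young libraries Ttr was 0.341 times as high in yMSN as in yCA (0.330 to 0.353), Kl 0.368 times (0.232 to 0.570), Folr1 0.321 times (0.239 to 0.428) and Kcne2 0.257 times (0.194 to 0.336). Clic6 was 4.65-fold (4.24 to 5.11), Aqp1 3.20-fold (2.98 to 3.45), Otx2 3.12-fold (2.78 to 3.50) and Enpp2 1.45-fold (1.34 to 1.57) higher in yMSN than in yCA. By direction alone, the 8 genes therefore split in 2 sets of 4 between the young libraries. Of the 8, 6 reached 5 CPM in yMSN or yCA, with 3 at least 2-fold higher in yMSN and 2 at least 2-fold lower. Of all genes that reached 5 CPM there, 8.61% were at least 2-fold higher in yMSN and 2.1% at least 2-fold lower.

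Whether Ttr moves with the other 7 genes was read from Ttr counts per count of each gene within 1 library, which no scaling between libraries can change. These ratios are not corrected for gene length, so only their course over the libraries is compared. With HP left aside, Kl came closest to a steady ratio. With HP included, the range was 101-fold for Kl and 54.6-fold for Kcne2, the latter on 2 Kcne2 counts in HP. There were 83.7 Ttr counts per Kl count in SP (51.3 to 147), 1.64 in HP (0.732 to 3.83), 152.5 in yMSN (107 to 226), 164 in yCA (131 to 210), 182 in dMSN 1 (176 to 188) and 139 in dMSN 2 (135 to 144), with 95% intervals for counting error. The young and dMSN libraries lay close together, SP was lower, and HP was far below all others. The spread of the young libraries and the geometric mean of the dMSN pair was 1.08-fold, against 1.30-fold within the dMSN pair.

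No other gene held such a ratio over the young and dMSN libraries. Ttr per Folr1 count was 11.4 in SP, 0.198 in HP, 69.3 in yMSN, 65.3 in yCA, 179 in dMSN 1 and 147 in dMSN 2. The young libraries had overlapping counting intervals and lay below dMSN. Ttr per Enpp2 count was 1.58 in SP, 0.0214 in HP, 2.60 in yMSN, 11.1 in yCA, 8.13 in dMSN 1 and 5.41 in dMSN 2, so yCA was at or above dMSN. Over SP, yMSN, yCA and the geometric mean of the dMSN pair, so without HP, the range of the ratio was 1.97-fold for Kl, 6.99-fold for Enpp2, 14.2-fold for Folr1, 34.5-fold for Kcne2, 87.0-fold for Clic6, 429-fold for Aqp1 and 2194-fold for Otx2.

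**Figure D3:**
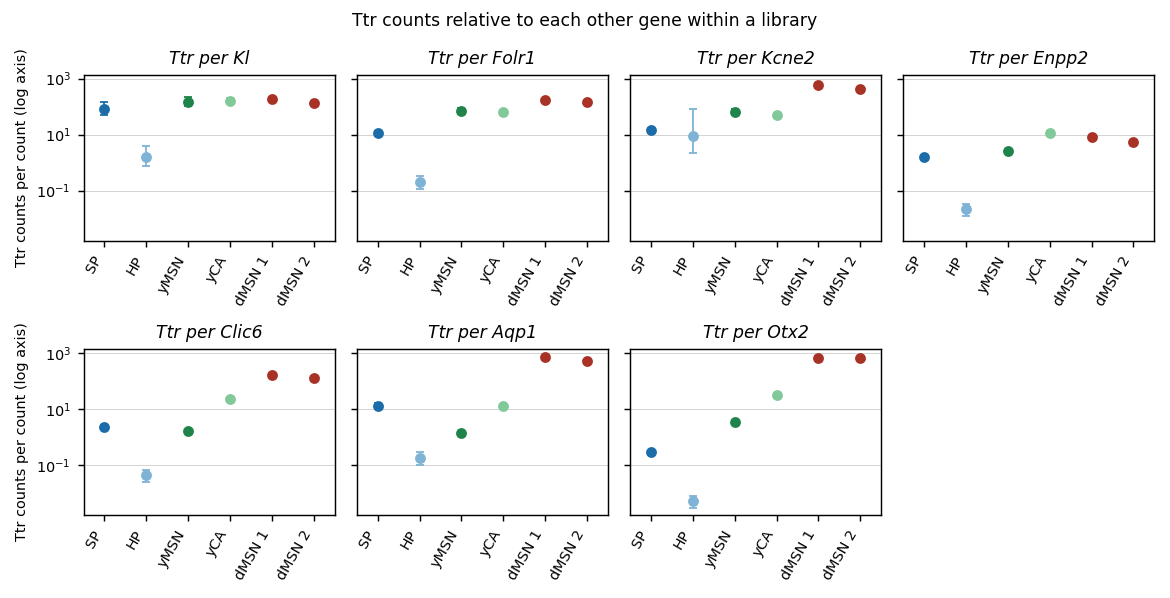
Ttr counts per count of each of the other 7 genes within each library, 1 panel a gene, on a log axis, with bars for 95% intervals of counting error. Per Kl the points of yMSN, yCA and dMSN lie between 139 and 182 and HP lies at 1.64, while per Otx2 the values run from 0.00503 in HP to 660 in dMSN 1.

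HP had the lowest ratio of the 6 libraries for each of the 7 genes, at 9 Ttr counts per Kcne2 count (on 2 Kcne2 counts) and 0.00503 per Otx2 count. Taken as Ttr minus the mean of the other 7 genes on the log2 CPM scale, Ttr stood at 2.48 in SP, -2.70 in HP, 3.38 in yMSN, 5.09 in yCA, 7.62 in dMSN 1 and 7.25 in dMSN 2. In each lineage the young library stood above its precursor library, by 0.90 for yMSN over SP and 7.79 for yCA over HP, and the dMSN pair stood above all others. With the median of the other 7 genes in place of their mean, yMSN lay below SP, at -1.72.

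Among themselves the genes fell into like and unlike courses. Likeness was measured as the root mean square difference of log2 CPM over the 6 libraries after centring each gene, as a description. Kl and Enpp2 were closest at 0.806, then Folr1 and Enpp2 at 0.914, Kl and Folr1 at 1.18, and Clic6 and Aqp1 at 1.29. Ttr was nearest to Kcne2 at 2.37 and Kl at 2.43, and farthest from Otx2 at 6.05. Kl, Enpp2 and Folr1 had in common that the dMSN pair stood far above the other 4 libraries. All genes were read from the same 6 libraries and share their depth.

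Over the 12638 other genes of at least 5 CPM on average, genes most like Ttr included Cacng3 at 1.01, Timp4 at 1.34, Tmem90a at 1.37, Rasal1 at 1.43, Caly at 1.46, Arpp21 at 1.47 and Faim2 at 1.49. Kcne2 ranked 275 and Kl 318 in that order, and Otx2 11997. Cacng3, for example, stood at 0.629 CPM in SP, 0.0574 CPM in HP, 6.22 CPM in yMSN, 8.02 CPM in yCA, 144 CPM in dMSN 1 and 176 CPM in dMSN 2. Like Ttr it was lowest in HP and highest in dMSN. The mean course of the other 7 genes was nearest to Ficd at 0.101, Optn at 0.155, Ppapdc2 at 0.165, Ap3m2 at 0.168, Crip2 at 0.174, Fam134a at 0.179, Tppp3 at 0.180 and Letm2 at 0.186, and Ttr lay at 3.47 from it.

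Another 24 genes of the choroid plexus epithelium were set beside the 8. In dMSN against yMSN 12 were higher, 6 were lower and 6 did not pass, where 32.1% of all genes were higher and 35.4% lower. In dMSN against SP 16 were higher, 3 were lower and 5 did not pass, where 39.1% of all genes were higher and 33.1% lower. In young against precursor 13 were higher, 2 were lower and 9 did not pass, where 21.7% of all genes were higher and 13.7% lower. The median level of the 24 was 2.49 CPM in SP, 2.12 CPM in HP, 8.60 CPM in yMSN, 6.03 CPM in yCA, 12.6 CPM in dMSN 1 and 12.4 CPM in dMSN 2. The precursors were thus lowest in the median, the young libraries between, and dMSN highest.

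The most abundant of the 24 were not those with the dMSN course. Igf2, a growth factor also made by meninges and other mesenchyme, stood at 677 CPM in SP, 675 CPM in HP, 1986 CPM in yMSN, 1423 CPM in yCA, 118 CPM in dMSN 1 and 107 CPM in dMSN 2, and fell by 4.14 ± 0.226 in dMSN against yMSN (edgeR adjusted p = 1.7e-08). Igfbp2, an IGF binding protein, fell by 0.55 ± 0.196 in dMSN against SP (edgeR adjusted p = 0.025) and stood at -0.33 ± 0.198 against yMSN, where it did not pass (edgeR adjusted p = 0.16). The copper transporter Slc31a1 fell by 1.26 ± 0.192 in dMSN against yMSN (edgeR adjusted p = 9.1e-05), and the monoamine transporter Slc29a4 fell by 0.74 ± 0.249 (edgeR adjusted p = 0.019).

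Another 6 genes of the list were chosen for naming after their values were seen. Kcnj13, an inwardly rectifying potassium channel, stood at 8.71 and 8.05 CPM in dMSN, 0.507 CPM in yMSN and 0.176 CPM in SP, and rose by 4.04 ± 0.454 in dMSN against yMSN (edgeR adjusted p = 7e-06). Htr2c, a serotonin receptor that neurons also make, rose by 3.83 ± 0.312 (edgeR adjusted p = 4.5e-07), and Ace, the angiotensin converting enzyme, by 2.61 ± 0.259 (edgeR adjusted p = 2.5e-06). Slc13a4, a sulphate transporter, rose by 2.04 ± 0.314 (edgeR adjusted p = 9.7e-05). Cldn2, a tight junction claudin, stood at 4.97 and 5.22 CPM in dMSN, 1.89 CPM in yMSN, 5.45 CPM in yCA and 0.554 CPM in SP, so yCA was level with dMSN. Tmem72, a membrane protein, was at 0 in SP and HP, 0.622 CPM in yMSN, 1.80 CPM in yCA and 2.07 and 2.42 CPM in dMSN.

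**Figure D4:**
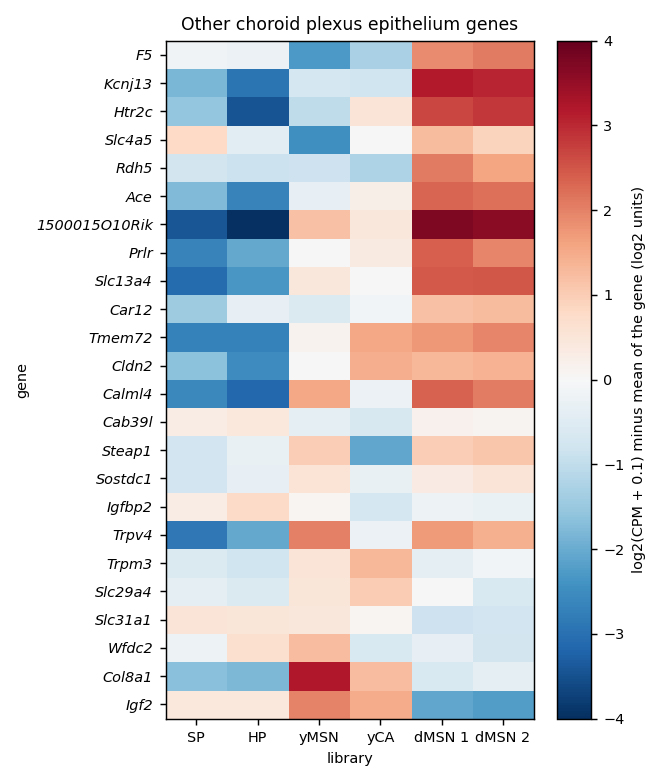
Level of each of the 24 other choroid plexus epithelium genes in each library, as log2(CPM + 0.1) minus the gene's mean over the 6 libraries, with genes in rows and libraries in columns. Genes such as Kcnj13 and Htr2c are highest in the dMSN columns, while Igf2 and Col8a1 are highest in yMSN.

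Companion genes of the 8 were read from lists by role, and their counts stand against 32.1% of all genes higher and 35.4% lower in dMSN against yMSN. The counts over the 13 channel partners of Kcne2 lay near those shares. Of 11 genes that handle thyroid hormone and retinol, the cargo of transthyretin, 6 were higher and 4 lower in dMSN against yMSN. Thra, a thyroid hormone receptor, rose by 1.38 ± 0.231 (edgeR adjusted p = 0.0002), and Crym, which binds thyroid hormone in the cytosol, by 2.73 ± 0.243 (edgeR adjusted p = 9.7e-07). Rbp4, the plasma retinol carrier that travels with transthyretin, was chosen after its values were seen. It stood at 20.6 and 27.5 CPM in dMSN, 1.54 CPM in yMSN and 0.453 CPM in SP, and rose by 3.96 ± 0.377 in dMSN against yMSN (edgeR adjusted p = 1.7e-06). Lrp2, the endocytic receptor megalin, also chosen after its values were seen, stood at 0.249 and 0.501 CPM in dMSN, 17.7 CPM in yMSN and 65.2 CPM in SP, the reverse course.

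Of 9 klotho and FGF23 partners 7 were tested, and 1 was higher and 5 lower in dMSN against yMSN. Fgfr1, a receptor that klotho joins to FGF23, fell by 1.41 ± 0.194 (edgeR adjusted p = 3.8e-05), while Fgfr3 rose by 1.34 ± 0.210 (edgeR adjusted p = 0.00011). Fgfr2 fell by 0.62 ± 0.200 (edgeR adjusted p = 0.016). Adam10, a protease that sheds klotho from the cell surface, fell by 1.53 ± 0.197 (edgeR adjusted p = 2.3e-05).

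Of 11 genes of folate transport and use, 2 were higher and 6 lower in dMSN against yMSN. Tyms, thymidylate synthase, fell by 2.63 ± 0.206 (edgeR adjusted p = 3.1e-07). Mthfd1 stood at 65.0 and 56.7 CPM in dMSN and 46.0 CPM in yMSN and did not pass. Of 11 LPA receptors and lipid phosphatases, which read and clear the product of autotaxin, 2 were higher and 6 lower. The phosphatase Ppap2b rose by 0.80 ± 0.221 (edgeR adjusted p = 0.0067), and the receptor Lpar2 fell by 3.65 ± 0.265 (edgeR adjusted p = 1.7e-07).

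Of 13 partners of Kcne2 among channels and ion transporters, 5 were higher and 6 lower in dMSN against yMSN. The sodium pump subunit Atp1b1 rose by 3.59 ± 0.299 (edgeR adjusted p = 5.4e-07), and Slc12a2, a chloride cotransporter, fell by 1.09 ± 0.190 (edgeR adjusted p = 0.00027). Neurons make the sodium pump too. Of the other 8 aquaporins 5 were tested, with 3 higher and 2 lower. Aqp4, the water channel of astrocytes, rose by 1.29 ± 0.230 (edgeR adjusted p = 0.00032), and Aqp3 fell by 8.46 ± 0.449 (edgeR adjusted p = 1.4e-08). Of 4 other CLIC genes 2 were lower, among them Clic4, which fell by 0.97 ± 0.200 (edgeR adjusted p = 0.00095). Of 7 genes of the OTX family and the eye field 2 were higher and 5 lower, and Otx1 fell by 0.97 ± 0.239 (edgeR adjusted p = 0.0032), as Otx2 did.

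The 14 tested genes of ependyma, the ciliated lining of the ventricles, followed yet another course. They summed to 48.8 CPM in SP, 28.5 CPM in HP, 250.1 CPM in yMSN, 72.6 CPM in yCA, 143 CPM in dMSN 1 and 104 CPM in dMSN 2. In dMSN against yMSN 9 of them were lower, where 35.4% of all genes were lower. In young against precursor 11 were higher, where 21.7% of all genes were higher. Foxj1, the master regulator of motile cilia, stood at 31.6 and 20.6 CPM in dMSN and 61.7 CPM in yMSN, and fell by 1.24 ± 0.257 (edgeR adjusted p = 0.00099). The sum was thus highest in yMSN, as Aqp1 and Clic6 were. By gene, 10 of the 14 were highest in yMSN and 4 in dMSN 1. A list of 11 genes of olfactory and airway mucosa, which also has motile cilia, summed to 22.4 CPM in SP, 21.4 CPM in HP, 846 CPM in yMSN, 203 CPM in yCA, 445 CPM in dMSN 1 and 444 CPM in dMSN 2. Gnal alone held 164 CPM in yCA, 391 CPM in dMSN 1 and 387 CPM in dMSN 2, against 145 CPM in yMSN. The median of the list was 33.1 CPM in yMSN, 0.334 CPM in yCA, 0.466 CPM in dMSN 1 and 0.397 CPM in dMSN 2. Cartilage and bone genes, 12 in all, summed to 528 CPM in SP, 631 CPM in HP, 1069 CPM in yMSN, 65.4 CPM in yCA, 57.2 CPM in dMSN 1 and 49.4 CPM in dMSN 2. Both sums were highest in yMSN too, and their part in the levels of the ciliary genes, Aqp1 and Clic6 was not tested. Of the 14 roof plate and cortical hem genes, 8 were lower in young against precursor, where 13.7% of all genes were lower. Among those 8 were Msx1, which fell by 3.85 ± 0.571 (edgeR adjusted p = 0.0073), and Wnt8b, which fell by 4.52 ± 0.314 (edgeR adjusted p = 0.0017).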

How the data were processed

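The authors deposited 1 table of raw read counts per gene symbol for each of the 6 polyA RNA libraries, with 34620 symbols and 5 summary lines that name no gene. The summary lines were left out of library sizes. Reads in no gene came to 5.34% to 9.81% and reads at several places to 17.3% to 27.3%. The submitters' processing notes name TopHat2 2.0.2, TopHat, Bowtie 1.0.0, HTSeq, edgeR, Bismark and methylKit, with no roles given. They name the builds mm9 and NCBIM37. The strand setting is not given in the sources used here. RefSeq promoter sequences were matched by symbol on another build, GRCm38.p6.

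The counts were fitted with edgeR 4.0.16 in R 4.3.3, with TMM factors and the filterByExpr filter, and the quasi-likelihood F test was run on all 19192 remaining genes, with Benjamini-Hochberg adjustment and a threshold of 0.05. An SE was taken as the log2 change over the square root of its F. The contrasts of stage and of lineage came from 1 additive model of all 6 libraries, with 2 residual degrees of freedom. Both dMSN comparisons came from a model of group means, whose 1 residual degree of freedom is the dMSN pair. For 2 single libraries there is no test. Exact 95% intervals are given there, which cover counting error only, since reads are not independent molecules. The steps were tested on simulated counts.

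Besides the 8 genes, 22 lists were read, and up to 4 genes of a list were named, those with the highest CPM in any library, beside genes said to be chosen after their values were seen. Some named by this rule are not reported here. The genes, lists and tests were chosen with earlier results of these data known. Alternatives were RLE and upper quartile scaling, no filter, a filter of 1 CPM in 2 libraries, DESeq2 1.42.0, limma 3.58.1 with voom, the other model, and each library left out in turn.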

Additional observations from a re-analysis of the deposited data

Results flagged for a closer look

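For 2 of the 8 genes, the hippocampal and the striatal pair of libraries moved in opposite directions. Kcne2, the potassium channel subunit, was 6.16 higher on the log2 scale in yCA than in HP and was -0.55 in yMSN against SP. Folr1, the folate receptor, was 0.85 higher in yCA than in HP and was -0.94 in yMSN against SP. Each side is 1 library against 1 library, so the difference between the lineages was not tested. The Kcne2 value of the hippocampal pair rests on 2 counts in HP.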

How the results depend on the processing

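Both dMSN comparisons kept their counts of higher and lower genes among the 8 under every scaling, filter and tool run and without SP, HP, yMSN or yCA where a fit remained, except under lineage and stage as terms, where 3 of the 8 were higher and 2 lower in dMSN against yMSN and 4 were higher in dMSN against SP. Leaving out 1 dMSN library left no residual degrees of freedom, and the values then had no test. In young against precursor, where 2 of the 8 were higher, 1 was higher under RLE scaling and 6 with 1 mean per cell group. Leaving out 1 library gave 1 to 5 higher, 1 to 2 lower, and 3590 to 7355 genes called in all, against 6798. In striatal against hippocampal, where no gene passed, 3 of the 8 were higher with 1 mean per cell group, DESeq2 called 60 genes in all, and 1 mean per cell group called 356. Leaving out 1 library gave 0 to 3 higher, 0 to 4 lower and 0 to 1515 genes in all. Without 1 of the 4 unreplicated libraries the spread of such a fit is that of the dMSN pair, and lone libraries are assumed to vary like it. Without a dMSN library it is the departure of the other 4 from additive lineage and stage.

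Ttr relative to the mean of the other 7 genes depended on how they were combined. With their median, and then with the mean without Enpp2, Aqp1 and Otx2, SP minus HP was 5.94 and 4.55 (against 5.18), yCA minus HP 7.41 and 6.73 (7.79), yMSN minus SP -1.72 and 1.31 (0.90), yMSN minus yCA -3.19 and -0.86 (-1.71), dMSN minus yMSN 5.56 and 2.69 (4.06), and dMSN minus SP 3.85 and 4.0 (4.96).

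In young against precursor Folr1, at -0.031, stood at 0.023 with limma voom and at -1.06 to 0.86 with 1 library left out, and Kcne2, at 2.19, at -0.66 to 6.73. In striatal against hippocampal limma voom gave -0.29 for Ttr and -0.071 for Kcne2. With 1 library left out there, Ttr ran from -1.55 to 6.02, Kcne2 from -1.96 to 5.33, Kl from -1.44 to 0.35, Folr1 from -1.64 to 0.17, Aqp1 from -0.19 to 1.68 and Enpp2 from -0.18 to 0.54. The cause of these changes was not tested. Over all genes, the median log2 change in young against precursor was -0.02 under RLE scaling, against 0.10, and in dMSN against SP 0.08, against 0.20. In dMSN against yMSN it was -0.27 under upper quartile scaling, against -0.11. No paired analysis was possible because the groups compared share fewer than 2 replicate numbers. Only dMSN has 2 libraries. Counts under 100 limit Ttr, Kl, Folr1 and Kcne2 in HP, and Kl in SP, yMSN and yCA. They also limit Kcne2 in SP and yMSN, and Folr1 in yMSN.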

Other observations

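Some genes best known from other organs were higher in the dMSN libraries, and all named here were chosen after their values were seen. In dMSN against yMSN, 2 of 11 thyroid genes were higher and 4 lower, 3 of 6 tested liver genes were higher and 1 lower, and 4 of 13 tested eye genes were higher and 2 lower, against 32.1% and 35.4% of all genes. Slc5a5, the iodide transporter of the thyroid, stood at 29.3 and 28.6 CPM in dMSN, 0.921 CPM in yMSN and 1.03 CPM in SP, and was 4.97 ± 0.367 higher on the log2 scale in dMSN than in yMSN (edgeR adjusted p = 1.9e-07). Tg, thyroglobulin, stood at 0.0665 and 0.233 CPM in dMSN and at 76.6 CPM in yCA. Trf, transferrin, which the liver, oligodendrocytes and choroid plexus make, stood at 174 and 110 CPM in dMSN and 2.90 CPM in yMSN, while Alb, albumin, did not exceed 0.150 CPM in any library. Rpe65, the visual cycle enzyme of the eye, stood at 2.74 and 2.84 CPM in dMSN and was at 0 in SP, HP, yMSN and yCA, where a count of 0 allows 0.0691 to 0.0861 CPM.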
